A study of Mus musculus with 10 samples.

Results

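The transcripts described here are those of the immunoglobulin heavy and light chains and of the J chain, read on mouse expression arrays in B cell leukemias and in pro-B cells. Members were chosen by gene name alone: non-control probes whose name in the scanner files begins with Igh, Igk or Igl, or is Igj or Jchain, without Igll1 and Ighmbp2. Of 41174 probes on the array, 19 met this rule. One of them, Iglon5, belongs to a family of cell adhesion proteins, was well above background on 0 of the 10 arrays and was set aside, which left 18 probes. There were 5 groups of 2 arrays. Leukemic cells of mouse 686, mouse 713 and mouse 760 came from lymph nodes of Ebf1+/- Pax5+/- animals, which carry 1 working copy of each of these 2 transcription factor genes (dHet). The dHet pro-B cells had the genotype Ebf1+/- Pax5+/- Rag2-/- and were cultured from c-Kit positive fetal liver cells on the stromal line OP9, with the cytokines SCF, Flt3L and IL-7. The wt pro-B cells, Ebf1+/+ Pax5+/+, were Fraction BC cells sorted from bone marrow of control mice. Rag2 status, fetal or adult origin, culture and the Ebf1 and Pax5 alleles all differ between the 2 kinds of pro-B cell and cannot be told apart. The leukemias differ from dHet pro-B cells in labelled Rag2 genotype, tissue of origin, culture and leukemic state. They differ from wt pro-B cells in the Ebf1 and Pax5 alleles, tissue of origin and leukemic state. These differences cannot be told apart either. No ages are given, and nothing in the labels tells whether both arrays of a group came from separate animals or cultures, so p-values here may measure only technical spread.

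An immunoglobulin gene is assembled in the B cell itself. The RAG1 and RAG2 proteins cut DNA so that heavy chain V, D and J segments are joined at the pro-B stage, and kappa or lambda V and J segments are joined later, mostly in pre-B cells. The joined variable exon is spliced to a constant region: mu (Ighm) first, delta (Ighd) in mature naive B cells, and gamma or alpha after class switching. Unrearranged constant regions and V segments can also be transcribed without coding for a chain. The J chain is a separate small protein that links IgM and IgA units in antibody-secreting cells, and its gene is not rearranged.

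The deposited descriptions and mm9 positions placed several probes in another class than their file names did, and the classes below follow the descriptions. By description 7 probes read heavy constant regions, 1 a heavy variable region, 3 kappa, 5 lambda and 2 the J chain, whereas the names give 2 heavy constant and 6 heavy variable probes. The heavy constant probes, all on chromosome 12, read Ighm (chr12:114656861-114656920), Ighd (named Ighv14-2, chr12:114654277-114654336), Ighg3 (chr12:114596396-114597927, a split alignment), Igha at 3 places (all named Igh-VJ558) and the I-alpha transcript that precedes switching to alpha (also named Igh-VJ558, chr12:114503159-114503217). The Igha probes are called 5′ (chr12:114497243-114497302), middle (chr12:114497123-114497182) and 3′ (chr12:114496985-114497044), in the order of the transcript. The heavy variable probe reads a rearranged cDNA of the J558 family. The kappa probes carry the names Igkv1-117 (chr6:68071786-68071845), Igkv6-14 (chr6:70356453-70356512) and Igkv9-120 (chr6:70672858-70672917). All 5 lambda probes are named Iglv1 in the files. Their positions are chr16:19062058-19062117 (constant), chr16:19061826-19061885 (called 3′), chr16:19063348-19085165 (V-J 1) and chr16:19063333-19085147 (V-J 2), and the fifth has no position. The Jchain probes lie at chr5:88950089-88950148 (5′) and chr5:88949919-88949978 (3′). Exons and untranslated regions were not annotated for any of them here.

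Probe sequences, 60 bases each and as deposited, show what each probe reads. Capitals mark TATTNCTGN, which in the lines below codes for the Tyr-Tyr-Cys or Tyr-Phe-Cys end of a variable region, and the codons of the Phe-Gly-x-Gly-Thr motif of a light chain J segment, x being any residue.
J558: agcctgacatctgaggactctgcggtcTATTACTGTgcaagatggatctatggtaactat
Igkv1-117: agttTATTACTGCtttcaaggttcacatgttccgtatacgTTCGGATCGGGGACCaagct
Igkv6-14: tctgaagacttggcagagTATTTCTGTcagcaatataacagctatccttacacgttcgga
Igkv9-120: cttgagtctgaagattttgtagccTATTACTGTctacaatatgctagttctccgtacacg
lambda V-J 1: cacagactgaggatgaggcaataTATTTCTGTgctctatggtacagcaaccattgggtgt
lambda V-J 2: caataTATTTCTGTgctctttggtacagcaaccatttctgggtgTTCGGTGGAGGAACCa
lambda constant: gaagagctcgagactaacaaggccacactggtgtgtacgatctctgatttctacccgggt
Igha 3′: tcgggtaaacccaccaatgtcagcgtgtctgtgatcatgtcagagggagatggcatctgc
The first 6 begin in a variable segment and run on past its end, while the last 2 lie in constant regions and have neither motif. Across the array, 625 of 41174 probes (1.52%) held TATTNCTGN on either strand, and 6 probes held the J segment motif (0.0146%), 2 of them Igkv1-117 and lambda V-J 2. A match describes the letters only. The J558 probe shared runs of 20 or more bases with 12 other heavy chain probes of the design, so its signal may come from several related chains.

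No spot was saturated on any array. Between 35.7% (leukemia 686 replicate 1) and 52.4% of probes were well above background, and replicates correlated across probes at r between 0.945 and 0.993. Slide 1 held replicate 1 of the 3 leukemias, slide 2 their replicate 2 and slide 3 the 4 pro-B arrays; wherever a leukemia is set against pro-B cells, group and slide cannot be told apart. Slides 2 and 3 were scanned on the same day, slide 1 on another. The Rag2 probe read -0.98 and -1.0 in dHet pro-B cells and -1.60 and -1.69 in wt; whether it lies in the deleted part is not known, so it does not check the label. Levels throughout are log2 signals minus the 75th percentile of the array, so that 0 is that percentile, and levels of different probes are not compared. Of the 12 pro-B and pre-B marker genes, 12 were detected on some wt and some dHet pro-B array, and Pax5 was on no array of leukemias 686 and 760.

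Of the 18 probes, 17 were well above background on both wt pro-B arrays and 5 on each dHet pro-B array. The leukemia arrays lay between, with 14 and 17 in leukemia 686, 16 and 16 in 713, and 14 and 14 in 760. The filter for testing asked for detection on both arrays of at least 1 group, which 17 probes met: 4 in all 5 groups, 9 in 4, 2 in 3, 1 in 2 and 1 (Igkv9-120) in wt pro-B alone. Since such a probe passed through the groups where it was bright, the counts below describe the probes and are no independent evidence of direction. The I-alpha probe was well above background only on leukemia 686 replicate 2, at -3.48, and was not tested.

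Set side by side, the 5 lambda probes, Igkv1-117 and Igkv6-14 had their highest mean in wt pro-B cells, a lower one in the leukemias and the lowest in dHet pro-B cells, and Igkv9-120 was detected in wt pro-B cells alone. Ighm and Ighd were lowest in the leukemias, and Ighg3, J558 and both Jchain probes had their highest mean there. In dHet against wt pro-B cells, 16 of 17 probes were lower and 0 higher at an adjusted p under 0.05 (limma, Benjamini-Hochberg over all probes), where 27.1% of all 22310 probes tested passed, 13.2% lower and 13.9% higher. The median difference of the 17 was -5.53, against 0.10 over all probes. Here and below, each difference from a group with no detected array enters the median at its bound (11 of the 17 in this comparison). The bound uses the lowest detected signal of each array, or the probe's own signal where that was higher. In the leukemias against dHet pro-B cells, 13 probes were higher and 1, Ighm, was lower, where 46.7% of all probes passed, 19.3% higher and 27.4% lower, with a median of 5.77 against -0.15 (10 at their bound and 1, detected in neither group, left out). In the leukemias against wt pro-B cells, 1 probe was higher and 9 were lower, where 58.7% of all probes passed, 27.7% higher and 31% lower, with a median of -3.16 against -0.07. These comparisons share their arrays and are not independent of each other.

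The last of these counts depended on the pro-B arrays. Without either wt pro-B array 2 of the 10 calls remained, Ighm and Ighd, and without either dHet pro-B array, which enter only through the pooled spread, 6 remained. With the leukemia arrays of slide 2 alone, scanned on the day of the pro-B arrays, 9 probes were called, and with single arrays in place of mouse means 14 were, 4 higher and 10 lower (55.8% of all probes). Adding scan day as a term to that fit called all 17, 4 higher and 13 lower, where 67.6% of all probes passed. In bulk RNA, fewer cells that make a transcript and less transcript per cell cannot be told apart. Marker genes of other cells moved too, and their part in these results was not tested. For the mature B cell list (10 genes tested), the summed level, with each gene's signal in units of the 75th percentile, was 217 to 229 in wt pro-B, 53.3 to 121 in the leukemias and 34.3 to 40.4 in dHet pro-B cells. On the dHet pro-B arrays Cd83, Cr2, Fcer2a, Fcmr and Ms4a1 were never well above background, and every gene of the list was on at least 1 wt array. Sums over 11 plasma cell markers, Jchain among them, ran from 232 to 377 in the leukemias, which spanned both pro-B groups, and were 323 to 357 in dHet and 297 to 309 in wt pro-B. Of these 11 plasma cell markers, 1 was higher and 5 lower in leukemias than in wt pro-B (27.7% and 31% of all probes). Compared with dHet pro-B, 3 were higher and 4 lower (19.3% and 27.4%). Prdm1, which drives plasma cell differentiation, was on no leukemia array. It was also dim in pro-B cells, with means of -2.76 in wt and -2.74 in dHet. Sums over 11 myeloid markers were 78.3 to 154 in wt pro-B, 21.6 to 24.1 in dHet pro-B and 14.2 to 145 in the leukemias. Adgre1, Camp, Csf1r, Mpo and Ngp were on no dHet array. Of the 11, 8 were lower and 0 higher in dHet than in wt (13.2% and 13.9% of all probes). Sums over 8 T cell markers were 14.7 to 68.5 in the leukemias, 11.2 to 14.8 in dHet and 10.1 to 11.1 in wt pro-B. Those over 6 natural killer markers were 7.67 to 42.8, 17.5 to 19.6 and 2.62 to 3.0 in the same order, and those over the 2 erythroid genes tested 1.08 to 85.5, 0.114 to 0.184 and 1.25 to 1.72.

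Ighm, the mu constant region of the first heavy chain made, was the constant region probe that dHet pro-B cells kept at nearly the wt level. Its levels were 9.90 and 9.74 in wt pro-B, 9.51 and 9.32 in dHet pro-B, 6.69 and 6.26 in leukemia 686, 7.37 and 6.94 in 713, and 7.63 and 7.24 in 760. All 6 leukemia arrays lay below all 4 pro-B arrays. Leukemias were 6.95-fold lower than wt pro-B cells (log2 difference -2.80 ± 0.29 SE, n = 3 mice and 2 arrays, adjusted p = 8.2e-04) and 5.25-fold lower than dHet pro-B cells (-2.39 ± 0.29, adjusted p = 0.00227). The difference between the pro-B groups was -0.40 ± 0.25 (adjusted p = 0.287), which passed under 6 alternatives: the authors' table (-0.71), quantile normalization with and without normexp (both -0.86), the percentile over probes detected on all arrays (-0.63), and scan day or slide as a block (-0.40, adjusted p = 0.0325). The last 2 are the same fit for this comparison. All 4 pro-B arrays shared a slide and a scan day, so the block changed only the pooled spread and not the difference. Of a pair of other mu constant probes, listed by accession and not among the 18, both were lower in dHet than in wt pro-B cells (-0.97 ± 0.17 and -1.73 ± 0.29, adjusted p = 0.00682 and 0.005) and both were lower in leukemias than in wt pro-B (-2.73 ± 0.14 and -2.31 ± 0.38). Against dHet pro-B cells these probes disagreed, with 1 lower in leukemias (-1.76, adjusted p = 0.00076) and 1 short of the threshold (-0.58, adjusted p = 0.257).

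Ighd is the delta constant region, to which the variable exon is spliced in mature naive B cells. It read 4.12 and 4.18 in wt pro-B, 2.65 and 2.52 in dHet pro-B, -0.45 and -0.04 in leukemia 686, 1.93 and 2.44 in 713, and 0.33 and 0.90 in 760. It was detected on every array, highest in wt pro-B cells and lowest in leukemia 686. Leukemias were 9.85-fold lower than wt pro-B (-3.30 ± 0.67, adjusted p = 0.00755), and dHet pro-B cells were 2.96-fold lower than wt (-1.57 ± 0.27, n = 2 and 2 arrays, adjusted p = 0.00627). The difference between leukemias and dHet pro-B cells, -1.73 ± 0.67, missed the threshold (adjusted p = 0.0783). It passed in a fit with a replicate block (adjusted p = 6.98e-04), which takes single arrays in place of mouse means and so counts both arrays of a mouse as replicates.

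Ighg3, the gamma 3 constant region, read 2.81 and 2.18 in leukemia 686, 4.17 and 3.33 in 713, 0.79 and -0.35 in 760, -3.72 and -3.64 in dHet pro-B and 0.14 and 0.76 in wt pro-B. Leukemias 686 and 713 lay above both pro-B groups, and leukemia 760 overlapped wt pro-B. Leukemias were 57.1-fold higher than dHet pro-B cells (5.84 ± 0.97, adjusted p = 0.00563), and dHet pro-B cells were 17.6-fold lower than wt (-4.13 ± 0.47, adjusted p = 0.00104). Against wt pro-B cells the difference of the leukemias was 1.70 ± 0.97 (adjusted p = 0.18; 0.00664 with the replicate block over single arrays).

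Igha, the alpha constant region of IgA, was bright in the leukemias and in wt pro-B cells and undetected in dHet pro-B cells by all 3 of its probes. The 3′ probe read 6.13 and 5.60 in leukemia 686, 5.34 and 4.35 in 713, 2.47 and 0.86 in 760, and 4.14 and 5.34 in wt pro-B, with -5.94 and -6.11, not well above background, in dHet pro-B. The leukemias of 686 and 713 overlapped or exceeded wt pro-B, and both 760 arrays fell below it. Against dHet pro-B cells, leukemias were at least 420-fold higher (adjusted p = 0.00212) and wt pro-B cells at least 643-fold higher (adjusted p = 7.2e-05). A fold written "at least" sets the mean of the brighter group, over all its arrays, against a floor for each array of the other. That floor is the lowest signal that counted as detected on the array, or the probe's own signal where that was higher. The corresponding bounds were 171-fold and 299-fold for the 5′ probe and 175-fold and 329-fold for the middle probe, all past the threshold. Leukemias did not pass against wt pro-B cells by any of the 3 (differences of -0.80, -0.91 and -0.61 from 5′ to 3′, adjusted p between 0.55 and 0.684). With mouse 760 left out the 3 differences were 0.45, 0.30 and 0.62, the opposite sign, so that no direction is given. The I-alpha transcript was well above background on neither wt pro-B array (-4.27 and -4.32), although Igha was bright there.

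The J558 probe, the only heavy variable member, was detected on all 10 arrays. It read 5.86 and 5.45 in leukemia 686, 5.96 and 5.46 in 713, 3.55 and 2.68 in 760, 1.62 and 1.62 in dHet pro-B and 3.87 and 3.77 in wt pro-B. Leukemias 686 and 713 lay above wt pro-B cells, leukemia 760 below, and all above dHet pro-B cells. Leukemias were 9.25-fold higher than dHet pro-B (3.21 ± 0.80, adjusted p = 0.0207), and dHet pro-B cells were 4.60-fold lower than wt (-2.20 ± 0.33, adjusted p = 0.00317). The call against dHet pro-B cells was lost without either dHet array or without mouse 686. The difference from wt pro-B cells was 1.01 ± 0.80 (adjusted p = 0.315; 0.0053 with the replicate block over single arrays).

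Kappa light chain probes were detected on both wt pro-B arrays and on 0 dHet pro-B arrays. Igkv1-117 read 0.96 and 0.92 in wt pro-B, 0.34 and -0.77 in leukemia 686, and -1.11 and -2.39 in 713. It was not well above background in 760 (-4.62 and -4.74) or dHet pro-B (-5.86 and -6.04). Thus the leukemias spread from just under the wt level to background. Wt pro-B cells were at least 46.2-fold higher than dHet (adjusted p = 1.4e-04). Leukemias, with 4 of 6 arrays detected, were at least 5.18-fold higher than dHet pro-B (adjusted p = 0.0483), a call lost without any 1 of 7 arrays in turn, and their difference from wt, -3.16 ± 1.21, missed the threshold (adjusted p = 0.0669; 3.46e-04 with the replicate block over single arrays).

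Igkv6-14 read 0.03 and -0.38 in wt pro-B, -2.11 (not detected) and -2.52 in leukemia 686, -2.23 and -3.90 in 713, and was at background in 760 and dHet pro-B. Leukemias were lower than wt pro-B (-3.71 ± 1.14, adjusted p = 0.0327). The fold was 9.37 with each undetected array set at its dimmest detected level, or at its own signal where that was higher. The dHet pro-B cells were at least 21.3-fold lower than wt (adjusted p = 2.9e-04). Leukemias, with 3 of 6 arrays detected, did not pass against dHet pro-B (adjusted p = 0.127; 0.00137 with the replicate block over single arrays). Igkv9-120 read -0.71 and -1.61 in wt pro-B and was well above background on no other array, with the highest other value, -1.61, on leukemia 686 replicate 1. Its bounds were at least 9.09-fold lower in leukemias (adjusted p = 0.0162) and at least 10.8-fold lower in dHet pro-B cells (adjusted p = 0.00685). Because this probe entered the tests through wt pro-B alone, where it was bright, these values are no independent evidence of direction. The Igkv9-120 call for the leukemias was lost without leukemia 686 replicate 2 or either wt array, and that for dHet pro-B without wt replicate 1.

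All 5 lambda light chain probes had 1 order of group means: wt pro-B highest, then leukemia 760, then 713, then 686, then dHet pro-B. The constant probe read 5.53 and 5.49 in wt pro-B, 4.66 and 3.72 in 760, 2.23 and 1.28 in 713, 1.16 and -0.44 in 686, and -5.79 and -5.82, not well above background, in dHet pro-B. Arrays of neighbouring groups in that order did not overlap for this probe, with leukemias 713 and 686 closest to each other. V-J 1, which spans the variable-joining junction printed above, read 4.23 and 4.33 in wt pro-B, 3.03 and 2.59 in 760, 0.95 and 0.73 in 713, 0.17 and -0.78 in 686, and -5.83 and -5.79 in dHet pro-B. V-J 2 read 3.66 and 3.56, 2.65 and 2.45, -0.05 and -0.22, 0.00 and -2.12, and -5.76 and -5.87 in the same order, so that here leukemias 713 and 686 overlapped.

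The dHet pro-B cells were at least 1096-fold lower than wt by the constant probe (adjusted p = 4.1e-05), at least 466-fold by V-J 1 (adjusted p = 9.0e-06), at least 294-fold by V-J 2 (adjusted p = 9.2e-05) and at least 166-fold by the unmapped probe (adjusted p = 8.4e-06). The 3′ probe, detected on 1 of 2 dHet arrays at -3.53, was 2382-fold lower (-11.22 ± 0.46, adjusted p = 1.9e-05). Leukemias were at least 103-fold higher than dHet pro-B by the constant probe, 52-fold by V-J 1, 32.9-fold by V-J 2 and 14.3-fold by the unmapped probe (5 of 6 arrays detected), with adjusted p between 0.00224 and 0.0107. Against wt pro-B cells all 5 were lower in leukemias, by 8.92-fold (V-J 2, -3.16 ± 1.00, adjusted p = 0.0371) to 11.6-fold (unmapped, -3.54 ± 0.91, adjusted p = 0.0179). Each of these 5 calls was lost without either wt pro-B array.

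Jchain, whose product joins IgM or IgA units, had the 1 call in the upward direction for leukemias against wt pro-B cells. The 5′ probe read 2.93 and 3.40 in leukemia 686, 0.70 and 0.31 in 713, 2.88 and 3.04 in 760 and -0.50 and -0.06 in wt pro-B, and was at background in dHet pro-B (-5.30 and -4.22). The 3′ probe read 4.88 and 5.01 in 686, 3.04 and 1.84 in 713, 5.33 and 4.67 in 760, 1.46 and 1.80 in wt pro-B, and -3.84 (not detected) and -2.45 in dHet pro-B. All 6 leukemia arrays lay above both wt pro-B arrays by either probe, with leukemia 713 nearest. The rise over wt was 5.63-fold by the 5′ probe (2.49 ± 0.85, adjusted p = 0.0471), and the 3′ probe gave nearly the same size without passing (2.50 ± 0.87, adjusted p = 0.05; 0.00468 with the replicate block over single arrays). The 5′ call was lost without any 1 of 6 arrays in turn and with the slide 2 leukemia arrays alone (2.53, adjusted p = 0.0681). Against dHet pro-B cells, leukemias were at least 105-fold higher by the 5′ probe (adjusted p = 0.00225) and 155-fold higher by the 3′ probe (7.27 ± 0.87, adjusted p = 0.00213). The wt pro-B cells were at least 18.7-fold and 27.4-fold higher than dHet (adjusted p = 3.2e-04 and 0.00109).

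Among the leukemias, the classes took different orders. Leukemia 760 had the highest mean of every lambda member and the lowest means of Igha, Ighg3, J558, Igkv1-117 and Igkv6-14. Leukemia 713 had the highest Ighd and Ighg3 and the lowest Jchain. Leukemia 686 had the lowest means of Ighd and of every lambda member, and the highest of Igkv1-117 and Igkv6-14. Against the other 2, leukemia 760 had 5 probes higher and 7 lower of 17 (9.64% of all probes passed, 4.31% higher and 5.33% lower), leukemia 713 had 3 higher and 2 lower (12.2% of all probes, 7.1% and 5.14%), and leukemia 686 had 2 higher and 5 lower (2.96% of all probes, 1.21% and 1.75%). Samples of the same replicate number shared a slide and deviated together in all 3 pairs of leukemias. With slide as a block, 14, 6 and 15 probes were called for leukemias 760, 713 and 686 (22.6%, 29.7% and 11.5% of all probes), and with a replicate block 13, 5 and 10 (11.6%, 15.6% and 4.12%). The count for leukemia 686 was 3 without either wt array and 4 without either dHet array or without leukemia 760 replicate 2, and that for 713 was 3 without leukemia 713 replicate 1. These p-values measure the spread between 2 arrays of a mouse, not between mice.

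In leukemia 760 every lambda probe rose, from 5.82-fold (V-J 1, 2.54 ± 0.28, n = 2 against 4 arrays, adjusted p = 0.00218) to 8.84-fold (V-J 2, 3.14 ± 0.51, adjusted p = 0.00985). The call of V-J 2 was lost without either 760 array, and that of the constant probe (3.13 ± 0.49, adjusted p = 0.00916) without 760 replicate 1. The 3 Igha probes fell by 3.76 ± 0.62, 3.64 ± 0.75 and 3.69 ± 0.54 on the log2 scale from 5′ to 3′ (adjusted p = 0.0106, 0.0249 and 0.00699). The call of the Igha 5′ probe was lost without 760 replicate 2, and that of the middle probe without replicate 1 of 686 or 713 or replicate 2 of 760. Ighg3 fell 7.49-fold (-2.91 ± 0.40, adjusted p = 0.00561) and J558 5.94-fold (-2.57 ± 0.28, adjusted p = 0.00221). Igkv1-117 was at least 11.1-fold and Igkv6-14 at least 4.42-fold lower (adjusted p = 0.00232 and 0.00339), the latter with 3 of the 4 other leukemia arrays detected. Ighm differed by 0.62 ± 0.22 (adjusted p = 0.148), and by the same amount with an adjusted p of 0.0379 in the replicate block fit, while the accession-named mu probes differed by -0.14 (adjusted p = 0.7) and -1.08 (adjusted p = 0.0381), so that no direction is given.

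Leukemia 713 stood apart in 3 constant or joining genes. Ighd was 4.0-fold higher than in the other leukemias (2.0 ± 0.24, adjusted p = 0.00258) and Ighg3 5.25-fold higher (2.39 ± 0.40, adjusted p = 0.00986). Both Jchain probes were lower, by 5.89-fold (5′, -2.56 ± 0.33, adjusted p = 0.00339) and 5.78-fold (3′, -2.53 ± 0.47, adjusted p = 0.0144). J558 was higher by 1.33 ± 0.28 (adjusted p = 0.0238), although its levels overlapped those of leukemia 686. The Ighg3 call was lost without 713 replicate 1, the Jchain 3′ call without 713 replicate 2, and the J558 call without any 1 of 6 arrays in turn.

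Leukemia 686 had lower lambda levels, higher levels of Igkv1-117 and a higher mean of Igkv6-14. The lambda constant, 3′, V-J 1 and unmapped probes were lower by 6.12-, 5.23-, 4.39- and 5.09-fold (adjusted p between 0.0048 and 0.0412), and V-J 2 differed by -2.26 ± 0.51 (adjusted p = 0.0709; 0.022 with slide as a block). Igkv1-117 was 8.0-fold higher (3.0 ± 0.41, adjusted p = 0.0151). Igkv6-14 was 3.10-fold higher with undetected arrays at their dimmest detected level or, where higher, their own signal (adjusted p = 0.0404). Ighd was 3.13-fold lower (-1.65 ± 0.24, adjusted p = 0.0179). The Igha differences of 2.60, 2.44 and 2.61 missed the threshold (adjusted p between 0.0567 and 0.169) and passed with slide as a block (adjusted p between 0.0109 and 0.0236). With the replicate block J558 (1.24, adjusted p = 0.0315) and Ighm (-0.82, adjusted p = 0.0315) passed as well, while the other mu probes differed by 0.18 and 0.93 without passing in the fit with no block. Of the 7 calls, those of V-J 1 and the unmapped lambda probe held without each array in turn.

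Markers of other cells also differed among the leukemias, and their part in these differences was not tested. Summed levels of 11 myeloid markers were 111 to 145 in leukemia 686, 58.8 to 60.9 in 713 and 14.2 to 16.9 in 760. Against the other leukemias, 6 of the 11 were higher and 0 lower in 686 (1.21% and 1.75% of all probes). In 760, 0 were higher and 7 lower (4.31% and 5.33%). Means of Igha, Igkv1-117 and Igkv6-14 fell in the same order of mice as the myeloid sums. Those of Ighm and of every lambda member ran in the reverse order, that of the T cell and natural killer sums below. Ighg3, Ighd, J558 and Jchain followed neither order. Orders of only 3 mice can match by accident, and no link was tested. Adgre1, Camp, Itgam, Mpo and S100a8 were on no array of leukemia 760. Mature B cell markers summed to 103 to 121 in 713, against 53.3 to 64.7 in 686 and 55.1 to 76.6 in 760. In 713, 6 of 10 were higher than in the other leukemias and 1 was lower (7.1% and 5.14% of all probes). Sums over 8 T cell markers were 14.7 to 22.6, 40.5 to 48.4 and 48.5 to 68.5 in 686, 713 and 760, and those over 6 natural killer markers were 7.67 to 11, 14.3 to 18.6 and 25.6 to 42.8. Most single markers did not follow these sums. Of the 8 T cell markers, 2 were higher and 3 lower in 760 than in the other leukemias. Of the 6 natural killer markers, 1 was higher and 2 were lower (4.31% and 5.33% of all probes). The sums for 760 came largely from Thy1 (mean 4.95) and Lck (4.50), and from Nkg7 (4.93).

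A further 137 immunoglobulin probes carry an accession in place of a gene name and so fall outside the members. They were picked by description alone, after the files had been seen. Between pro-B groups, dHet was lower by 45 of 49 kappa variable probes tested, 34 of 39 heavy variable, 4 of 4 lambda and 5 of 7 heavy constant, and was higher by 1, for gamma 2B (27.1% of all probes passed, 13.2% lower and 13.9% higher). In leukemias against wt pro-B cells, 37 of 49 kappa variable probes and 4 of 4 lambda probes were lower and 0 higher, while 10 of 39 heavy variable probes were lower and 1 higher, where 31% of all probes were lower and 27.7% higher. The heavy variable share that was lower was thus no larger than that over all probes. Set against dHet pro-B cells, leukemias were higher by 14 of 49 kappa variable, 23 of 39 heavy variable and 4 of 4 lambda probes, and lower by 0. Heavy constant probes were higher by 3 and lower by 1 of 7. Among probes described as cDNA clones, 15 of 21 heavy and 3 of 10 light chain ones were higher and 0 lower. Over all probes, 19.3% were higher and 27.4% lower. Kappa variable probes had median levels of 0.83 and 0.54 on the wt pro-B arrays, where 51 and 49 of 52 were well above background, and of -5.12 and -5.11 on the dHet pro-B arrays, where 14 and 12 were. Leukemia arrays lay between, at -1.94 and -2.64 in 686, -1.61 and -2.67 in 713, and -4.04 and -4.39 in 760. These probes thus did not set leukemia 686 above 713. Against the other leukemias, 6 of 49 were higher and 0 lower in 686 (1.21% and 1.75% of all probes). In 713, 6 were higher and 1 lower (7.1% and 5.14%). In leukemia 760 against the others, 28 of 39 heavy variable and 21 of 49 kappa variable probes were lower, and 3 of 4 lambda probes were higher and 1 lower, where 4.31% of all probes were higher and 5.33% lower. The lower one reads lambda constant 2, with -0.19 and -0.50 in 760, 2.03 and 1.76 in 686, 2.45 and 2.33 in 713, -1.79 and -2.25 in dHet pro-B and 7.66 and 7.54 in wt pro-B. By it leukemia 760 was the lowest of the leukemias (-2.49 ± 0.20 against the others, adjusted p = 6.9e-04). By both lambda variable 1 probes it was the highest (2.63 ± 0.30 and 2.64 ± 0.41). The lambda variable 2 probe had that direction too (2.47 ± 0.36, adjusted p = 0.00642).

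Counts for genes that assemble, carry, regulate or secrete immunoglobulin, here and in the next paragraph, are read against the shares of all probes that passed. These were 27.7% higher and 31% lower in leukemias than in wt pro-B cells, and 19.3% and 27.4% against dHet pro-B cells. In dHet against wt they were 13.9% and 13.2%. Of 12 recombination genes, 2 were higher and 5 lower in leukemias than in wt pro-B cells, 1 higher and 5 lower than in dHet pro-B cells, and 3 higher and 2 lower in dHet than in wt (medians -0.67, -0.42 and 0.26). Rag1, a subunit of the recombinase, fell in leukemias by 1.83 on the log2 scale against wt and 2.13 against dHet, and Lig4, the ligase of the joining step, by 2.79 and 2.72. Polm means were -4.18 to 2.03 in the leukemias and 5.77 in wt. Xrcc5 and Poll went the other way, with means of 2.04 to 3.59 and 3.30 to 3.80 in the leukemias and of -0.08 and 1.46 in wt. Dntt, which adds untemplated bases at the junctions, was higher in leukemia 760 than in the others (3.08) and lower in 713 (-2.54). Of 6 receptor partners, 3 were higher and 1 lower in leukemias than in wt pro-B cells, and 3 higher and 0 lower in dHet than in wt. The surrogate light chain genes Vpreb1, Vpreb2 and Igll1 were those higher in leukemias (0.91, 1.29 and 1.47) and in dHet pro-B (1.47, 1.72 and 1.80).

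Of 13 regulators that bind the loci, 1 was higher and 7 lower in leukemias than in wt, 0 higher and 5 lower than in dHet, and 0 higher and 7 lower in dHet than in wt (medians -1.07, -0.33 and -1.05). Irf4 was lower in leukemias than in wt by 3.54, and Ikzf3, with 5 of 6 leukemia arrays detected, by 5.55. In leukemia 713 6 of the 13 were higher than in the other leukemias and 0 lower (7.1% and 5.14% of all probes), among them Ikzf3 (4.16) and Irf8 (3.29). Of 11 secretion genes, 4 were higher and 1 lower in leukemias than in dHet pro-B cells, with Xbp1 (2.02), Derl3 (2.87), Hspa5 (2.03) and Hsp90b1 (1.26) the higher ones, and 1 was higher and 3 lower than in wt. In dHet against wt pro-B cells 5 of the 11 were lower and 0 higher.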

How the data were processed

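RNA of 10 mouse samples was read on one-colour Agilent arrays, 1 array per sample, after Cy3 labelling. Per the file headers, the deposited intensity values come from Feature Extraction 10.5.1.1 (9.1 per the submitters' processing notes), with probe positions on mm9. Processed values of the same arrays were deposited by the authors as log2, with array medians between 6.83 and 6.85; its centring and background treatment are unknown, and it was used only as an alternative.

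From the processed signals, control spots and outlier spots were left out, spots of a probe averaged, each array divided by its 75th percentile and log2 taken. A probe was tested when well above background on both arrays of at least 1 group (22310 of 41174 probes). The number of arrays limits the precision. Tests used limma 3.58.1 in R 4.3.3 on the whole table, with Benjamini-Hochberg adjustment and a threshold of 0.05; tables were made in Python 3.11.15 with pandas 2.3.3 and numpy 2.4.6. Leukemias were compared with pro-B cells over 3 mouse means and 2 and 2 arrays (4 residual degrees of freedom), and the other comparisons were fitted over 10 arrays in 5 groups (5 residual degrees of freedom). The fits were tested on simulated data.

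Probes were kept separate. The rule named with values every heavy constant, J chain and light chain constant probe and, of variable and joining probes, the 5 largest differences per direction and comparison past the threshold. Classes were to follow gene names; because names and descriptions disagreed, descriptions were used. Members and gene lists were chosen with earlier results of these data known. Leukemia arrays of 1 replicate number shared a slide and deviated together (correlations across probes of 0.536, 0.441 and 0.633), so the number pairs the leukemias; other group pairs lay between -0.04 and 0.08 and were not treated as paired. Alternatives covered background correction, scaling, filters, outlier spots, the authors' table, slide, scan day and replicate as blocks, and leaving out each array or mouse. A short list of class switching genes is not reported here.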

Additional observations from a re-analysis of the deposited data

Results flagged for a closer look

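The difference of leukemias from wt pro-B cells ran in opposite directions in different mice for 3 probes, and the difference between the leukemias passed the test (limma, Benjamini-Hochberg). For the Igha 5′ probe, both arrays of leukemia 686 lay above and both of 760 below the wt pro-B arrays, and leukemia 760 differed from the other leukemias by -3.76 (adjusted p = 0.0106). The Igha 3′ probe had the same pattern, with a difference of -3.69 (adjusted p = 0.00699). For J558, both arrays of leukemias 686 and 713 lay above and both of 760 below the wt pro-B arrays; leukemia 760 differed from the others by -2.57 (adjusted p = 0.00221) and leukemia 713 by 1.33 (adjusted p = 0.0238).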

How the results depend on the processing

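Over 26 alternatives, 102 single-probe differences gave 2270 values: 2027 kept their side of the threshold, 119 newly passed it and 124 no longer did. No difference past the threshold changed sign, although some that missed it did, such as Igha against wt pro-B cells. Called probes numbered 10, 14 and 16 for leukemias against wt, leukemias against dHet and dHet against wt pro-B, and 7, 5 and 12 for leukemias 686, 713 and 760. Single arrays in place of mouse means gave 14 for the first, and adding scan day as a block 17; for 686 scan day or slide as a block gave 15. With only probes detected on all arrays compared, 3 of 4 tested passed against dHet pro-B and 3 of 4 in dHet against wt. For 686 the authors' table gave 13, normexp with quantile normalization 14 and no filter on dim probes 1; for 713 no filter gave 3. A replicate block gave 14, 16, 16, 10, 5 and 13. The 6 single-probe calls it added against pro-B cells also passed over single arrays without it. Leaving out each array gave 2 to 10, 11 to 15, 15 to 16, 3 to 7, 3 to 7 and 9 to 13. Scaling shifted all probes: the share of calls that were higher in leukemias against wt was 47.2%, against 69.8% by the array median (median difference of all probes 0.49 in place of -0.07) and 29.8% on probes detected on all arrays (-0.44). The corresponding shares were 41.4%, 56.0% and 32.7% against dHet, and 51.3%, 63.8% and 37.8% for dHet against wt; for 686 they were 40.8%, 23.5% and 49.0%, with 30.4% by quantile normalization. Fewer probes above background on leukemia 686 replicate 1 limit the dimmest kappa probes. The slide 2 leukemia arrays were tried alone after seeing the data.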

Other observations

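Among accession-named heavy constant probes, chosen after their values were seen, gamma 2B was the one higher in dHet than in wt pro-B cells. The 2 dHet pro-B arrays read 4.31 and 2.53, against 1.33 and 1.44 in wt pro-B, 1.19 and 1.52 in leukemia 686, 2.07 and 2.21 in 713, and -0.87 and -1.12 in 760. The difference between the pro-B groups was 2.04 ± 0.51 (limma, adjusted p = 0.0242), with the 2 dHet arrays farther apart than those of any other group. The epsilon constant probe was well above background on 0 arrays. The 2 gamma 1 and 2 gamma 2C probes were lower in leukemia 760 than in the other leukemias, by differences from -2.91 to -3.69 (adjusted p between 0.00368 and 0.00794), the same direction as Ighg3.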
